A study of Mus musculus with 16 samples.

Results

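The genes described here are 31 enzymes and regulators of sterol and fatty acid synthesis, chosen by name as genes of the SREBP pathway, of cholesterol synthesis and of lipogenesis, out of the 55416 gene IDs of the count table. All 31 were found in the table by symbol. They comprise 7 enzymes of the mevalonate pathway, 11 enzymes that turn farnesyl pyrophosphate into cholesterol, 6 regulators or sterol carriers, and 7 enzymes of fatty acid synthesis. Of the 31 genes, 30 passed the filter on low counts and were tested, and the fatty acid desaturase Fads2 was not.

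RNA came from mouse macrophages matured from a Hoxb8 line, in which bone marrow progenitors are held in a dividing state by the transcription factor Hoxb8. The 4 groups were macrophages alone and macrophages given apoptotic Jurkat cells for 45, 90 and 180 min, with 4 libraries in each group. Jurkat is a human T cell leukaemia line, and efferocytosis is the name for clearance of dying cells by phagocytes. All groups are the same cell line, so they stand for 1 source of macrophages. The hour at which the macrophages alone were harvested is not given in the sources used here, so in comparisons with these controls the effect of exposure and that of time in culture cannot be told apart. The labels do not say whether the libraries of a group are separate cultures, and the p-values therefore reflect a spread that may be technical.

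Cholesterol is built from acetyl-CoA through mevalonate, farnesyl pyrophosphate, squalene and lanosterol, and fatty acids are built from the same acetyl-CoA through malonyl-CoA. Both routes are switched on by the SREBP transcription factors, which are made as membrane precursors and are escorted by SCAP from the endoplasmic reticulum to the Golgi to be cut free. When sterols are plentiful, INSIG proteins hold SCAP back and the synthesis genes go quiet. A macrophage that digests a dying cell takes in that cell's cholesterol and fatty acids, and oxysterols made from the cholesterol also activate LXR, a nuclear receptor that induces Srebf1 and sterol efflux genes.

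Library totals were 18.7 M to 27.7 M counts in macrophages alone, 24.4 M to 41.7 M at 45 min, 13.6 M to 17.4 M at 90 min and 10.7 M to 23.4 M at 180 min. All 12 macrophage markers examined were detected in each group, and their summed level was between 10950 and 13800 CPM (counts per M counts of the library) in every library. The 12 genes that mark T cells summed to 11.2 to 15.7 CPM at 180 min, against 11.8 to 15.04 CPM in macrophages alone, and most of that sum was Cd28. Of these 12, Cd3e, Cd3g, Cd2, Cd7 and Bcl11b had no count in any library. Cd3d was at 0 CPM in macrophages alone and at 90 min, at 0.0158 CPM at 45 min and at 0.125 CPM at 180 min. Lck was at 0.122 CPM in macrophages alone, 0.182 CPM at 45 min, 0.351 CPM at 90 min and 0.223 CPM at 180 min. One T cell marker, Cd5, averaged 1.70 CPM at 180 min, against 0.426 CPM in macrophages alone (log2 difference 1.96, SE 0.59, edgeR quasi-likelihood adjusted p = 0.00738). Cd28, by contrast, was lower than in macrophages alone at 90 min (log2 difference -0.37, SE 0.13, edgeR adjusted p = 0.0282). Its differences at 45 min (-0.34, adjusted p = 0.06) and 180 min (-0.15, adjusted p = 0.408) did not pass. Whether reads of human RNA entered the counts of the synthesis genes was not tested. In bulk RNA, fewer cells that express a gene and less RNA per cell cannot be told apart.

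Per kb of exon, the synthesis genes of resting macrophages were led by the fatty acid enzymes Acly and Scd2. Acly, which makes cytosolic acetyl-CoA from citrate, stood at 44.4 ± 0.77 CPM per kb in macrophages alone (SD, n = 4), and Scd2, which puts a double bond into stearoyl-CoA, at 25.5 ± 1.1 CPM per kb. The next were Srebf1 at 14.5 ± 1.4, the desaturase Fads1 at 11.9 ± 0.72 and the sterol isomerase Ebp at 11.1 ± 0.42 CPM per kb. The mean ± SD ranges of Fads1 and Ebp overlap. Insig2, Srebf2, Scap and Insig1 followed between 7.29 and 9.76 CPM per kb, above the means of all sterol synthesis enzymes except Ebp. The length used is that of all annotated exons merged, so this order can depend on the annotation. Without division by length, Msmo1 at 35.7 CPM was above Insig1 at 22.6 CPM. Hmgcs1, which makes HMG-CoA, was the highest mevalonate gene at 7.12 ± 0.28 CPM per kb, a range that overlaps that of Insig1 (7.29 ± 0.58). Msmo1, a methylsterol oxidase, was at 5.81 ± 0.72 CPM per kb. Fasn, the fatty acid synthase, was low at 1.58 ± 0.16 CPM per kb. So were the fatty acid enzymes Acaca at 2.03 ± 0.098, Elovl6 at 0.517 ± 0.19 and Fads2 at 0.0749 ± 0.08 CPM per kb.

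**Figure D1:**
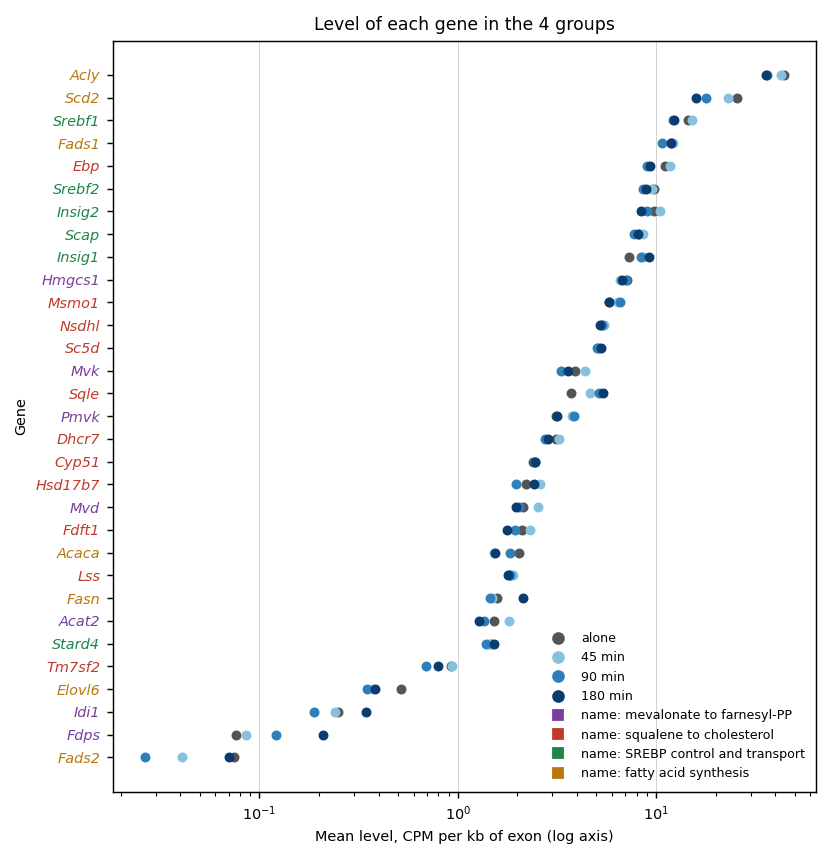
Mean level of each of the 31 genes in the 4 groups, in CPM per kb of exon on a log axis, ordered by the level in macrophages alone and with names coloured by role. Acly and Scd2 lead, Idi1, Fdps and Fads2 lie at the bottom, and for most genes the 4 points almost coincide.

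The lowest genes give little to compare. Fads2 was between 0 and 0.627 CPM over the 16 libraries. Fdps, which makes farnesyl pyrophosphate, was between 0.0655 and 1.19 CPM, and Idi1, which isomerises isopentenyl pyrophosphate, between 0.0582 and 1.57 CPM. Both enzymes have near-identical gene copies that can share reads, and how such reads were counted is not given in the sources used here, so these 2 levels are uncertain. Fdps had 1.09, 1.19, 0.467 and 0.758 CPM at 180 min, against 0.289, 0.627, 0.264 and 0.107 CPM in macrophages alone. Those libraries overlap, and the log2 difference of 1.37 (SE 0.63) did not pass the test (edgeR adjusted p = 0.0952), although it did so once library 2 of the controls was left out (log2 difference 1.90, adjusted p = 0.044).

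The synthesis genes that changed with apoptotic cells went in both directions. At 45 min, 1 of 30 tested genes rose and 1 fell, a share of 6.67% where 10.8% of all 14168 genes tested passed (4.69% higher and 6.11% lower). At 90 min, 1 rose and 5 fell, 20% where 21.1% of all genes passed (11.1% higher and 9.97% lower). At 180 min, 3 rose and 6 fell, 30% where 31.1% of all genes passed (15.1% higher and 16% lower). The share of synthesis genes called was thus near the share of all genes at each time. In the test of any difference between the 3 times and macrophages alone, 12 of 30 passed (40%), against 44.6% of all genes.

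The median log2 difference of the 30 genes was 0.05 at 45 min, -0.12 at 90 min and -0.05 at 180 min, and that of all genes tested was 0.00, 0.00 and 0.01. Leaving out 1 library at a time moved the median of the 30 genes between 0.04 and 0.09 at 45 min, between -0.15 and -0.09 at 90 min and between -0.08 and -0.03 at 180 min. The 3 comparisons share the same control libraries. By role, the calls at 180 min were 0 of 7 mevalonate enzymes, 2 of 11 squalene and sterol enzymes, 3 of 6 regulators and 4 of 6 tested fatty acid enzymes. The 10 genes whose 180 min libraries did not overlap those of macrophages alone made up 33.3% of the 30, and 28.6% of all genes tested had such separate groups. Of the 30 genes, 16 were called in none of the 6 comparisons between groups, among them Hmgcs1, Lss, Cyp51, Nsdhl and Sc5d. The matching share of all genes tested was not counted, so whether 16 of 30 is many or few cannot be said.

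**Figure D2:**
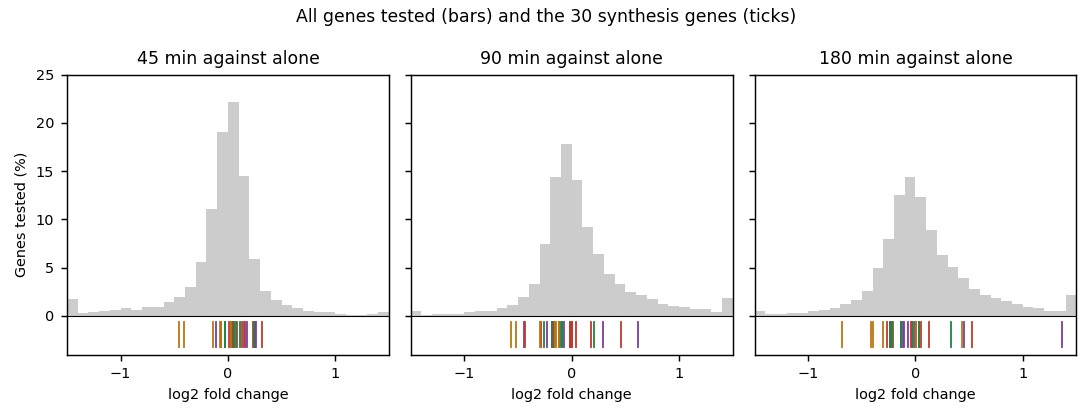
Log2 fold change at each time against macrophages alone, as a histogram of all 14168 genes tested (bars, percent of genes per 0.1 of log2, with the outermost bars holding all genes beyond) and as 1 tick for each of the 30 synthesis genes, coloured by role as in the other plots. Most ticks fall within the bulk of the distribution at each time, and the lone tick at 180 min far to the right is Fdps, at 1.37 and not called.

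**Figure D3:**
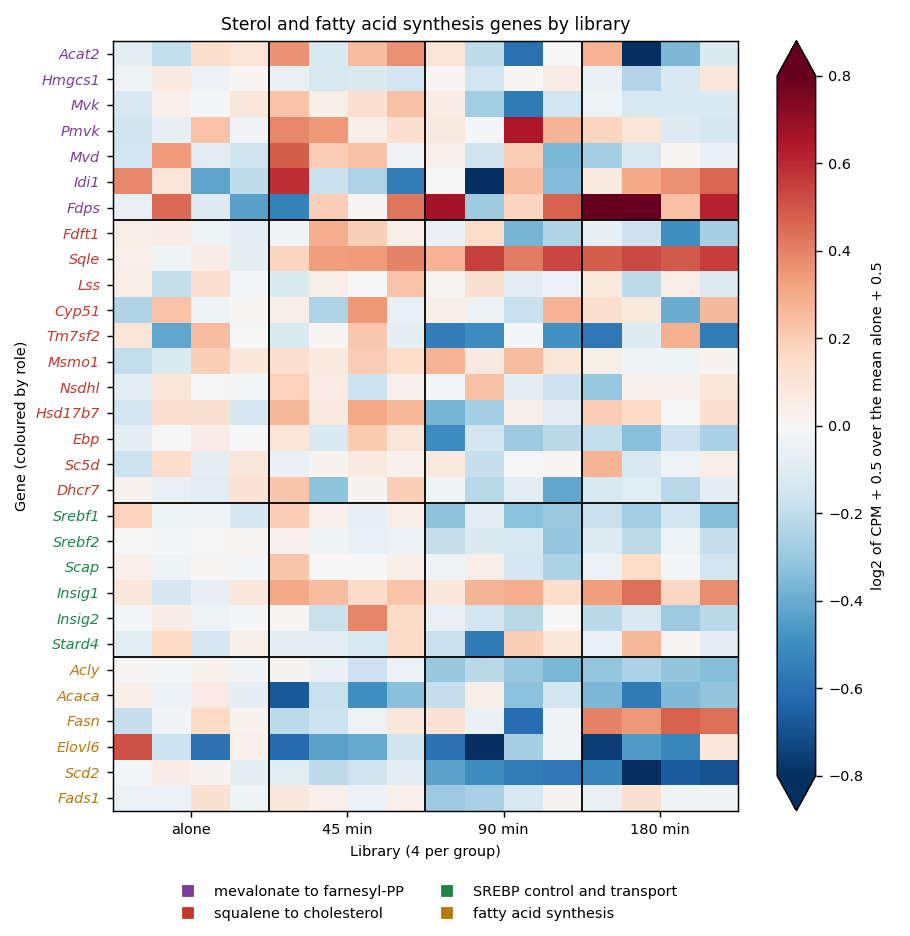
Each of the 30 tested genes (rows, grouped by role) in each of the 16 libraries (columns), as log2 of CPM + 0.5 over the mean of macrophages alone, with colours that saturate at 0.8. Sqle and Insig1 are red in all or nearly all libraries with apoptotic cells, Scd2 and Acly turn blue at 90 and 180 min, Fasn turns red at 180 min, and most rows show no shared colour within a group.

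The promoters of 4 textbook SREBP genes are shown so that genes with and without a call can be set side by side: Insig1 and Fasn rose at 180 min, and Hmgcs1 and Mvk (mevalonate kinase) passed no test against macrophages alone. Each line gives the 250 bases before the RefSeq start site, 5′ to 3′ on the gene's strand, in build GRCm38.p6: Insig1 at chr5:28071162-28071411 (plus strand), Fasn at chr11:120824548-120824797 (minus strand), Hmgcs1 at chr13:119690101-119690350 (plus strand) and Mvk at chr5:114444019-114444268 (plus strand). Capitals mark a CCAAT box on either strand (ATTGG when read on this one), the E-box CACGTG, and the sterol regulatory element core TCACNCCAC.
Insig1: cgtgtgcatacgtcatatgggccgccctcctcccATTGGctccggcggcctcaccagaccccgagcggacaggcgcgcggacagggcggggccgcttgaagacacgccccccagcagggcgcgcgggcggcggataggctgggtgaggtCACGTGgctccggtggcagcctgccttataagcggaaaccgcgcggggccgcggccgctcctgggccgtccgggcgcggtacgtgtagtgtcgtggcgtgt
Fasn: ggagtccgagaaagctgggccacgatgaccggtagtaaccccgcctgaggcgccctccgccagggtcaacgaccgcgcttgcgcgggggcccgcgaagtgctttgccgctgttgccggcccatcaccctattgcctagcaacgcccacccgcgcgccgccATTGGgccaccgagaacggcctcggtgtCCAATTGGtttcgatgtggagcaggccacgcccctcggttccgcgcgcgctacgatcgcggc
Hmgcs1: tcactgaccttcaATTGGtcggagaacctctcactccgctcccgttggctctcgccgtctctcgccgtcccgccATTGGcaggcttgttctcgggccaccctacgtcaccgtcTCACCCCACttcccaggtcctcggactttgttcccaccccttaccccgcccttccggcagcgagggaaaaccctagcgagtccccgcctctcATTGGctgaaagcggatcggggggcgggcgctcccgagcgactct
Mvk: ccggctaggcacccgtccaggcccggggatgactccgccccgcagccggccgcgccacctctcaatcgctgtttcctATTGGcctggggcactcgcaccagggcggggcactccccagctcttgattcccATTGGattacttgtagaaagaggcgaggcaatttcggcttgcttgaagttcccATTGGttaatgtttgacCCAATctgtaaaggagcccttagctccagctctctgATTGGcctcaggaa
A window was found for 25 of the 31 genes, spanning 250 bases before to 50 after the start. None was found for Sqle, Scd2, Fdft1, Fdps, Fads1 and Stard4, so the motif counts leave these genes out. Both strands were searched, for the exact strings only. TCACNCCAC was in 1 of the 25 (Hmgcs1), and in 1.37% of the 9650 tested genes with a window. CCAAT, the box bound by NF-Y, a partner of SREBP at many sterol genes, was in 20 of 25, including 14 of 15 sterol synthesis enzymes, and in 43.1% of tested genes. The E-box CACGTG was in 5 of 25 and in 11.9% of tested genes, and the GC box GGGCGG, a site for Sp1, in 21 of 25 and in 67.3%. CCAAT boxes were therefore present in genes that rose (Insig1, Fasn), that fell (Ebp, Acly, Srebf1) and that were not called (Hmgcs1, Lss, Cyp51) at 180 min. A match is a stretch of letters and not a measured binding site.

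In the mevalonate pathway no enzyme passed the test against macrophages alone at any time. Hmgcs1 had 31.7, 34.4, 31.6 and 33 CPM in macrophages alone, 31.4, 29.9, 30.1 and 29.4 CPM at 45 min, 33.1, 29.3, 33 and 34 CPM at 90 min and 31.5, 27.7, 29.9 and 34.9 CPM at 180 min. The 45 min libraries were all slightly below those of macrophages alone, the later ones overlapped them, and the log2 differences were -0.11 (SE 0.08), -0.02 (SE 0.08) and -0.07 (SE 0.08). At 180 min the 95% interval for Hmgcs1 ran from -0.23 to 0.09, so a change as large as that of Sqle lies outside it. Acat2, the thiolase that starts the pathway, averaged 3.27 ± 1.29 CPM at 180 min, against 3.90 ± 0.48 CPM in macrophages alone. Pmvk, phosphomevalonate kinase, averaged 6.59 ± 1.5 CPM at 90 min, against 5.38 ± 0.70 CPM in macrophages alone, and Mvd, the decarboxylase after it, lay between 2.96 and 5.73 CPM in all 16 libraries. All 3 are low genes whose groups overlapped, and none passed the test against macrophages alone.

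Mvk differed between 2 of the times. It had 10.9, 8.50, 6.86 and 9.29 CPM at 90 min, against 12.3, 10.8, 11.4 and 12.3 CPM at 45 min, with overlap through 1 library of each group. The log2 difference of -0.40 (SE 0.13) passed the test (edgeR quasi-likelihood adjusted p = 0.0136), but not without library 3 of 90 min (-0.31, adjusted p = 0.0696) or with length and GC content adjusted for (-0.28, adjusted p = 0.103). Against macrophages alone, which had 9.49, 10.7, 10.3 and 11.1 CPM, neither group passed (log2 difference 0.17, SE 0.12 at 45 min and -0.23, SE 0.13 at 90 min).

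From farnesyl pyrophosphate to cholesterol, 1 gene rose at every time. Sqle, squalene epoxidase, a rate-limiting step of the sterol branch, had 21.4, 20.2, 21.6 and 19.7 CPM in macrophages alone, 23.5, 26.2, 26.4 and 27.5 CPM at 45 min, 25.3, 30.5, 27.7 and 30.3 CPM at 90 min and 29.2, 30.1, 29.4 and 30.7 CPM at 180 min. Every library with apoptotic cells lay above every library of macrophages alone. By edgeR's quasi-likelihood test the log2 difference was 0.32 at 45 min (SE 0.08, adjusted p = 0.0053), 0.46 at 90 min (SE 0.08, adjusted p = 3.07e-05) and 0.52 at 180 min (SE 0.08, adjusted p = 8.45e-07), the last being 1.44-fold. These 3 calls held under all alternatives tried. The 180 min libraries also lay above those of 45 min (log2 difference 0.20, SE 0.08, adjusted p = 0.0456), but that call was lost under 2 of 8 other settings and without any 1 of 14 of the 16 libraries (adjusted p from 0.0527 to 0.17), the exceptions being library 4 of 45 min and library 1 of 90 min.

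The enzymes next to Sqle in the pathway passed no test against macrophages alone. Fdft1, squalene synthase, which makes the substrate of Sqle, had 8.52, 7.90, 6.20 and 7.33 CPM at 180 min, against 9.23, 9.32, 8.68 and 8.48 CPM in macrophages alone, a log2 difference of -0.27 (SE 0.14) that did not pass. Lss, lanosterol synthase, which uses the product of Sqle, had 21, 17.1, 20.6 and 18.5 CPM at 180 min, against 20.6, 17.3, 21.7 and 19.7 CPM in macrophages alone. The Lss groups overlapped and differed by -0.04 (SE 0.10) on the log2 scale, with a 95% interval from -0.23 to 0.16. The ratio of Sqle to Lss counts within a library was 1.39 to 1.76 at 180 min, against 0.997 to 1.17 in macrophages alone. This gap follows from the rise of Sqle beside a level Lss and is no further evidence. Fdft1 was lower at 180 min than at 45 min, when it had 8.80, 11, 10.3 and 9.25 CPM (log2 difference -0.40, SE 0.14, edgeR adjusted p = 0.0169), a call lost without library 2 of 45 min (adjusted p = 0.0608) or library 3 of 180 min (adjusted p = 0.0986).

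Ebp, the isomerase that shifts a double bond within the sterol ring, fell at 90 and 180 min. It had 24.3, 25.6, 26.7 and 25.6 CPM in macrophages alone, 27.7, 23.5, 29.6 and 27.4 CPM at 45 min, 17.9, 23, 20.8 and 21.9 CPM at 90 min and 22.3, 20.1, 22.7 and 21.2 CPM at 180 min. All libraries of the 2 later times lay below all of macrophages alone. Its log2 difference from macrophages alone was -0.28 at 90 min (SE 0.09, edgeR adjusted p = 0.0175) and -0.24 at 180 min (SE 0.09, adjusted p = 0.0352). Leaving out library 3 of macrophages alone (adjusted p = 0.0596) or library 1 of 90 min (0.0976) ended the 90 min call. Leaving out library 2 or 4 of 180 min, or library 2, 3 or 4 of the controls, ended the 180 min call (adjusted p from 0.0693 to 0.115), as did 3 of 8 other settings (0.0532 to 0.0889).

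None of the remaining enzymes of this branch passed the test against macrophages alone. Hsd17b7, a ketosteroid reductase, had 8.62, 9.25, 11.7 and 10.6 CPM at 90 min, against 13.6, 11.9, 14.1 and 13.7 CPM at 45 min, a fall by 0.40 on the log2 scale (SE 0.12, edgeR adjusted p = 0.00826) with groups that did not overlap. Against macrophages alone, which had 10.1 to 12.5 CPM, it passed at no time. Cyp51, the lanosterol demethylase, averaged 10.6 ± 1.49 CPM in macrophages alone and 10.9 CPM at each of the 3 times. Nsdhl, Sc5d and Dhcr7, which act late in the pathway, differed from macrophages alone by -0.03 (SE 0.11), 0.05 (SE 0.09) and -0.13 (SE 0.11) on the log2 scale at 180 min. Tm7sf2, a sterol reductase, was low, at 2.59 to 5.10 CPM over all libraries. Msmo1 had a log2 difference of 0.15 (SE 0.07) at 45 min and 0.18 (SE 0.08) at 90 min, and passed at both times once library 3 of the controls was left out (0.24, adjusted p = 0.0474, and 0.25, adjusted p = 0.0243). Summed over the 18 sterol synthesis enzymes, the level was 252 ± 9.0 CPM in macrophages alone, 270 ± 8.9 CPM at 45 min, 254 ± 2.5 CPM at 90 min and 253 ± 9.1 CPM at 180 min. The sum at 180 min differed from that of macrophages alone by less than 1 SD. At 45 min the mean sum was higher, with overlapping libraries (256 to 276 CPM, against 239 to 260 CPM in macrophages alone), and the sums were not tested.

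**Figure D4:**
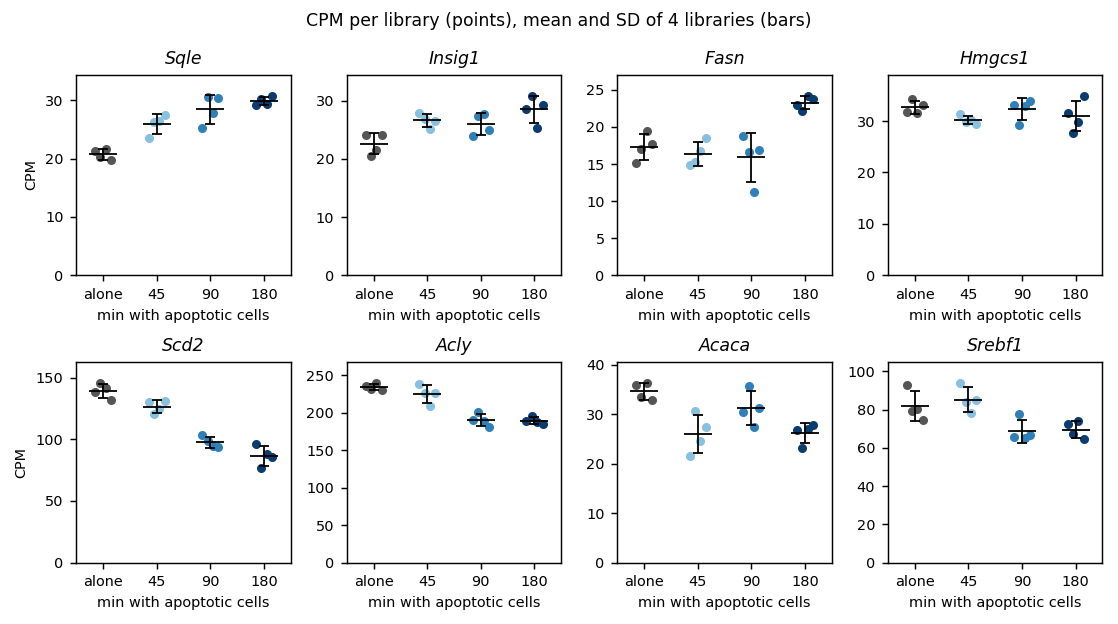
CPM of 8 genes in each library (points), with the mean and SD of 4 libraries (bars) in macrophages alone and at 45, 90 and 180 min, each axis starting at 0. Sqle is higher at all 3 times with apoptotic cells, and Insig1 is higher at 180 min and overlaps its resting level at 90 min. Fasn is higher at 180 min than in the other 3 groups. Scd2, Acly and Srebf1 are lower from 90 min on, and Scd2 lies just below its resting libraries at 45 min. Acaca is lower at 45 and 180 min, and Hmgcs1 overlaps its resting level at 90 and 180 min.

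Among the regulators, Insig1 rose and Insig2 fell at 180 min. Insig1, whose product holds SCAP in the endoplasmic reticulum and whose gene is itself an SREBP target, had 24.1, 20.5, 21.6 and 24 CPM in macrophages alone, 27.9, 26.9, 25.1 and 26.5 CPM at 45 min, 23.9, 27.3, 27.7 and 25 CPM at 90 min and 28.6, 30.8, 25.3 and 29.3 CPM at 180 min. The 45 and 180 min libraries all lay above those of macrophages alone, and the 90 min libraries overlapped them. Insig1 rose at 180 min by 0.33 on the log2 scale (SE 0.09, edgeR adjusted p = 0.00162, 1.26-fold), a call kept under all alternatives tried. At 45 min its log2 difference of 0.24 (SE 0.08) missed the threshold (adjusted p = 0.0503). It passed under 4 of 8 other settings and without any 1 of 10 libraries, namely 1 or 4 of macrophages alone, 3 of 45 min, each of 90 min and 1, 2 or 3 of 180 min (adjusted p from 0.0269 to 0.0488).

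Insig2, the second INSIG gene, which is not driven by SREBP in the same way, had 33.5, 35.2, 32.8 and 33.5 CPM in macrophages alone, 34, 29.8, 44.4 and 37.6 CPM at 45 min, 32.4, 30.3, 28.9 and 33.7 CPM at 90 min and 29, 31, 27.6 and 29 CPM at 180 min. The 180 min libraries were all below those of macrophages alone, and 1 library of 45 min stood at 44.4 CPM. The log2 difference at 180 min was -0.22 (SE 0.09, edgeR adjusted p = 0.0464), a call lost under 5 of 8 other settings and without any 1 of 12 libraries, all except 1, 2 and 3 of 45 min and 2 of 180 min (adjusted p from 0.0505 to 0.136). Against 45 min it was lower at 180 min by 0.33 on the log2 scale (SE 0.08, adjusted p = 0.00161). The ratio of Insig1 to Insig2 counts within a library was 0.918 to 1.01 at 180 min, against 0.584 to 0.719 in macrophages alone. Both genes were already separate from the controls in opposite directions, so the gap between these ranges follows from their values and is no further evidence.

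The genes of both SREBP precursors fell at 90 min. Srebf1, whose products favour fatty acid genes, had 93.1, 79.4, 80.3 and 74.3 CPM in macrophages alone, 93.7, 84, 78.1 and 85 CPM at 45 min, 65.4, 77.6, 64.9 and 66.5 CPM at 90 min and 72.2, 67.3, 73.8 and 64.5 CPM at 180 min. It fell by 0.25 at 90 min (SE 0.07, edgeR adjusted p = 0.00285) and by 0.24 at 180 min (SE 0.07, adjusted p = 0.00326) on the log2 scale against macrophages alone. The 90 min groups overlapped through 1 library at 77.6 CPM, and leaving out library 1 of the controls ended the 180 min call (-0.16, adjusted p = 0.0669). Srebf2, whose product favours sterol genes, had 70, 69.5, 70.3 and 70.8 CPM in macrophages alone, 72.2, 68.3, 67.3 and 67.8 CPM at 45 min, 61.4, 65.1, 64.2 and 56.4 CPM at 90 min and 65.4, 60.5, 68.2 and 61.6 CPM at 180 min. The later libraries were all below those of macrophages alone. Srebf2 fell by 0.18 on the log2 scale at 90 min (SE 0.06, adjusted p = 0.0202), a call lost without library 4 of 90 min (-0.15, adjusted p = 0.0993). At 45 min its log2 difference was -0.03 (SE 0.06), but with length and GC content adjusted for it was -0.17 and passed (adjusted p = 0.0286). At 180 min its log2 difference was -0.13 (SE 0.06) and missed the threshold (adjusted p = 0.0865), which it met without library 3 of 180 min (adjusted p = 0.0472) and under 2 of 8 other settings (0.0445 and 0.0468).

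Scap, the escort, and Stard4, a cytosolic sterol carrier, passed the test against macrophages alone at no time. Scap averaged 60.6 ± 5.23 CPM at 180 min, against 61.1 ± 1.40 CPM in macrophages alone, a log2 difference of -0.02 with a 95% interval from -0.15 to 0.11. Stard4 averaged 8.50 ± 1.04 CPM at 180 min, against 8.26 ± 0.84 CPM in macrophages alone, with a wider interval from -0.27 to 0.33.

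Scd2 showed the largest difference that passed the test at 90 and at 180 min against macrophages alone. It had 139, 146, 142 and 132 CPM in macrophages alone, 131, 120, 125 and 131 CPM at 45 min, 104, 98.3, 94.5 and 93.7 CPM at 90 min and 96, 77, 87.8 and 85.8 CPM at 180 min. All libraries of 90 and 180 min lay below all of 45 min and of macrophages alone. The 45 min libraries were also all below those of macrophages alone, by a narrow margin (highest 131.3 CPM, against a lowest control of 132.0 CPM). By edgeR's quasi-likelihood test Scd2 fell by 0.52 on the log2 scale at 90 min (SE 0.05, adjusted p = 2.92e-11) and by 0.68 at 180 min (SE 0.06, adjusted p = 3.65e-16), to 0.622 of its level in macrophages alone. At 45 min the difference was -0.14 (SE 0.05, adjusted p = 0.0818), which passed under 3 of 8 other settings (adjusted p from 0.00464 to 0.0311). Between 180 and 90 min, whose libraries overlap, it was -0.17 (SE 0.06, adjusted p = 0.04), and that call was lost under 4 of 8 other settings and without any 1 of 13 libraries, the exceptions being 1 and 4 of 45 min and 1 of 180 min (adjusted p from 0.0532 to 0.21).

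Acly fell as well. It had 236, 232, 239 and 230 CPM in macrophages alone, 238, 226, 209 and 227 CPM at 45 min, 190, 202, 190 and 182 CPM at 90 min and 189, 196, 188 and 185 CPM at 180 min. The 2 later groups lay wholly below both earlier ones and overlapped each other. Acly fell by 0.30 on the log2 scale at 90 min (SE 0.05, edgeR adjusted p = 8.62e-07) and by 0.31 at 180 min (SE 0.05, adjusted p = 1.77e-07), and its difference between 180 and 90 min was -0.01 (SE 0.05). At 45 min the difference was -0.06 (SE 0.05), and it passed only with length and GC content adjusted for (-0.15, adjusted p = 0.00564).

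Of the enzymes that act after Acly, Acaca fell and Fasn rose at 180 min. Acaca, the carboxylase that makes malonyl-CoA, had 35.8, 33.5, 36.2 and 32.9 CPM in macrophages alone, 21.5, 30.6, 24.5 and 27.4 CPM at 45 min, 30.4, 35.8, 27.4 and 31.2 CPM at 90 min and 26.9, 23.2, 27 and 27.7 CPM at 180 min. The libraries of 45 and 180 min were below all of macrophages alone, and those of 90 min overlapped them. Acaca fell by 0.41 on the log2 scale at 45 min (SE 0.09, edgeR adjusted p = 0.000521) and by 0.39 at 180 min (SE 0.09, adjusted p = 0.000332), and at 90 min the difference was -0.15 (SE 0.09, adjusted p = 0.25). It was higher at 90 min than at 45 min by 0.26 (SE 0.09, adjusted p = 0.0205), a call lost without library 1 or 3 of 45 min or 2 or 4 of 90 min (adjusted p from 0.0563 to 0.166), or with thinned counts (0.0835). Between 180 and 90 min the difference was -0.25 (SE 0.09, adjusted p = 0.0749), which passed without library 3 of 90 min (-0.29, adjusted p = 0.0405).

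Fasn, which builds palmitate from malonyl-CoA, rose late. It had 15.1, 17, 19.4 and 17.6 CPM in macrophages alone, 14.9, 15.3, 16.8 and 18.5 CPM at 45 min, 18.8, 16.6, 11.2 and 16.9 CPM at 90 min and 23, 22.1, 24.2 and 23.7 CPM at 180 min. The 4 libraries of 180 min lay above the other 12. By edgeR's quasi-likelihood test Fasn was higher at 180 min by 0.43 on the log2 scale against macrophages alone (SE 0.11, adjusted p = 0.0011), by 0.51 against 45 min (SE 0.11, adjusted p = 9.74e-05) and by 0.55 against 90 min (SE 0.11, adjusted p = 0.000176). These 3 calls were kept under all alternatives tried. The ratio of Fasn to Acaca counts within a library was 0.855 to 0.953 at 180 min, against 0.423 to 0.537 in macrophages alone. That gap follows from the rise of Fasn and the fall of Acaca and is no further evidence.

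Fads1 and Elovl6 passed no test against macrophages alone with all libraries in the fit. Fads1, a desaturase of polyunsaturated fatty acids, had 46.7, 47.7, 52.5 and 58.3 CPM at 90 min, against 60.7, 58.9, 55.4 and 59 CPM at 45 min, with overlap through the highest library of 90 min. That log2 difference of -0.19 (SE 0.07, edgeR adjusted p = 0.0264) was lost without library 1 or 4 of 45 min or 1 or 2 of 90 min (adjusted p from 0.06 to 0.0794), with thinned counts (0.0724) or with length and GC content adjusted for (-0.08, adjusted p = 0.39). Against macrophages alone Fads1 differed by -0.16 (SE 0.07) at 90 min, which passed without library 4 of 90 min (adjusted p = 0.0129), and by 0.00 (SE 0.07) at 180 min. Elovl6, an elongase, had 1.77, 2.30, 2.17 and 3.58 CPM at 180 min, against 4.94, 2.90, 2.04 and 3.43 CPM in macrophages alone, with overlapping groups and a 95% interval from -0.99 to 0.15. Summed over the 7 fatty acid genes the level was 487 ± 11.7 CPM in macrophages alone, 455 ± 16.2 CPM at 45 min, 389 ± 10.1 CPM at 90 min and 386 ± 3.95 CPM at 180 min, a sum that is mostly Acly and Scd2.

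**Figure D5:**
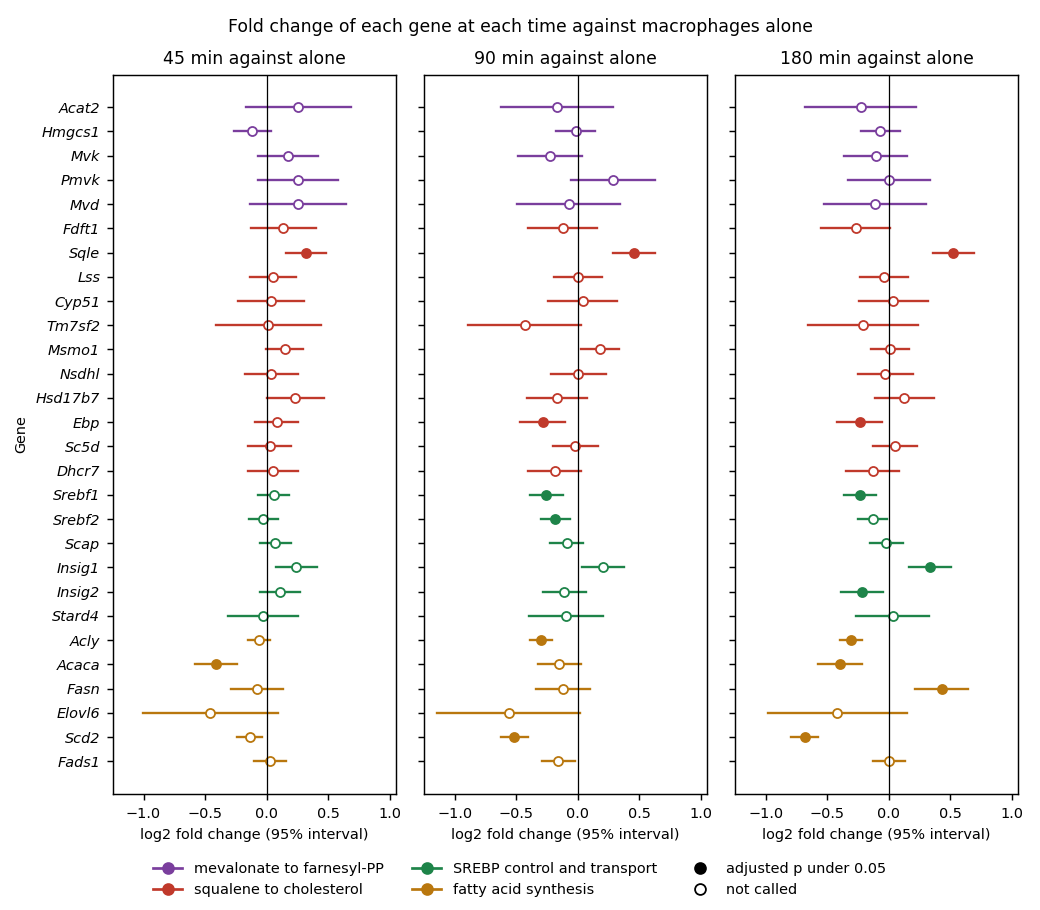
Log2 fold change with its 95% interval for 28 of the 30 tested genes (Idi1 and Fdps, with very wide intervals, are left out) at 45, 90 and 180 min against macrophages alone, coloured by role, with filled points for an adjusted p under 0.05. The filled points at 180 min are Sqle, Insig1 and Fasn to the right of 0 and Ebp, Srebf1, Insig2, Acly, Acaca and Scd2 to the left.

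Where a gene did not pass, the interval shows what size of change the data still allow. Among genes at 5 CPM or more in macrophages alone, the 22 not called at 45 min had 95% intervals within 0.804 to 1.5 of the resting level. For the 18 not called at 90 min the bounds were 0.715 and 1.55, and for the 15 not called at 180 min they were 0.683 and 1.29.

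Between the times with apoptotic cells, the step to 90 min brought more falls than rises. At 90 min against 45 min, 9 of 30 genes fell and 1 rose, 33.3% where 28.1% of all genes tested passed (13.3% lower and 14.8% higher). The 9 were Mvk, Hsd17b7, Ebp, Srebf1, Srebf2, Insig2, Acly, Scd2 and Fads1, and the riser was Acaca. In that step Scd2 fell by 0.38 (SE 0.05, edgeR adjusted p = 1.51e-07), Ebp by 0.37 (SE 0.09, adjusted p = 0.00126), Srebf1 by 0.31 (SE 0.07, adjusted p = 0.000165) and Acly by 0.24 (SE 0.05, adjusted p = 4.98e-05) on the log2 scale. With length and GC content adjusted for, the Srebf1 difference was -0.14 and missed the threshold (adjusted p = 0.0622). The Srebf2 call (-0.16, SE 0.06, adjusted p = 0.0379) was lost without library 1 or 4 of 45 min or 4 of 90 min (adjusted p from 0.0571 to 0.124), with thinned counts (0.0985) and with protein-coding genes only (0.061), and the difference turned to 0.015 (adjusted p = 0.883) after gene length and GC content were adjusted for. The Insig2 call (-0.22, SE 0.08, adjusted p = 0.0485) was lost under 2 of 8 other settings and without library 3 or 4 of 45 min, 2 or 3 of 90 min or 4 of 180 min (adjusted p from 0.0502 to 0.289). Scap differed by -0.16 (SE 0.07, adjusted p = 0.0625) and passed under 4 of 8 other settings and without any 1 library of macrophages alone, 2 or 3 of 45 min or 1 or 2 of 90 min (adjusted p from 0.0117 to 0.042). Dhcr7 (-0.24, SE 0.11) passed without library 2 of 45 min or 1 of 90 min (adjusted p = 0.00798 and 0.0379), and Fdft1 (-0.26, SE 0.14) without library 2 of 90 min (0.0468).

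At 180 min against 90 min, 2 of 30 genes passed, Fasn higher and Scd2 lower, 6.67% where 11.4% of all genes tested passed (4.45% higher and 6.97% lower). Fads1 differed by 0.16 (SE 0.07) over that step and passed without library 4 of 90 min (0.24, edgeR adjusted p = 0.0181). At 180 min against 45 min, 2 rose and 6 fell, 26.7% where 36.4% of all genes tested passed (18.3% higher and 18% lower). The 2 were Fasn and Sqle, and the 6 were Acly, Ebp, Fdft1, Insig2, Scd2 and Srebf1. Acat2 (-0.49, SE 0.22) passed over that span without library 2 of 45 min or 1 of 180 min (adjusted p = 0.037 and 0.0149) or with thinned counts (0.0398), and Dhcr7 (-0.18, SE 0.11) without library 2 of 45 min (0.0237).

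Genes beside the pathway were taken from lists set by function, and their counts at 180 min can be read against the 15.1% of all genes that were higher and the 16% that were lower. Of 10 genes that process SREBP or degrade its sterol-sensing partners, 1 rose and 5 fell, with a list median of -0.13 on the log2 scale. March6, a ubiquitin ligase that degrades squalene epoxidase protein, averaged 112 ± 8.0 CPM at 180 min, against 150 ± 6.0 CPM in macrophages alone, and fell by 0.42 on the log2 scale (SE 0.05, edgeR adjusted p = 2.47e-09). Rnf145, a ligase for SCAP, and Rnf139 each fell by 0.27 (adjusted p = 0.000708 and 0.00146), and Erlin1, an endoplasmic reticulum protein that binds the SREBP complex, rose by 0.22 (SE 0.07, adjusted p = 0.0179).

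Of 7 genes that supply acetyl-CoA or NADPH, 4 fell at 90 min and 2 at 180 min, and none rose at either time. Of all genes tested, 9.97% were lower at 90 min. G6pdx, which makes NADPH in the pentose phosphate pathway, averaged 256 ± 7.9 CPM at 180 min, against 328 ± 12 CPM in macrophages alone, and fell by 0.36 on the log2 scale (SE 0.04, edgeR adjusted p = 4.88e-10). Idh1, a cytosolic NADPH source, fell by 0.24 (SE 0.06, adjusted p = 0.00169). The list's median was -0.19 at 90 min and -0.21 at 180 min.

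Of 16 tested genes of other steps in fatty acid elongation, desaturation and activation, 1 rose and 5 fell at 180 min. The riser was Acsl1, which activates long-chain fatty acids with coenzyme A, at 316 ± 14 CPM at 180 min, against 183 ± 4.8 CPM in macrophages alone (log2 difference 0.79, SE 0.05, edgeR adjusted p = 5.34e-22). Mid1ip1, an activator of acetyl-CoA carboxylase, fell by 0.40 (SE 0.07, adjusted p = 2.43e-06), and the elongase Elovl5 by 0.30 (SE 0.07, adjusted p = 0.000338). Of 9 genes of glycerolipid synthesis, only Lpin2, a phosphatidate phosphatase, passed at 180 min, with 318 ± 13 CPM at 180 min, against 216 ± 3.8 CPM in macrophages alone (log2 difference 0.56, SE 0.04, adjusted p = 3.17e-16).

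Of 12 tested genes of sterol esterification, transport and oxysterol synthesis, 2 rose and 6 fell at 180 min. Gramd1a and Gramd1b, which carry cholesterol from the plasma membrane to the endoplasmic reticulum, were the 2 that rose, by 0.84 (SE 0.06, edgeR adjusted p = 8.41e-19) and 0.41 (SE 0.04, adjusted p = 1.17e-11) on the log2 scale. Stard3, a sterol carrier of late endosomes, fell by 0.44 (SE 0.05, adjusted p = 3.24e-10), and Lipa, the lysosomal lipase that frees cholesterol from its esters, fell by 0.23 (SE 0.04, adjusted p = 6.66e-07). Ch25h, which makes an oxysterol that acts on INSIG, rose at 45 and 90 min, by 0.52 (SE 0.12, edgeR adjusted p = 0.00124) and 0.62 (SE 0.12, adjusted p = 6.7e-05), and at 180 min differed by -0.06 (SE 0.12).

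The isoprenoid branch, which leaves the pathway at farnesyl pyrophosphate, had 2 of 14 genes higher and 1 lower at 180 min, the last being Pggt1b, a subunit of geranylgeranyl transferase (-0.32, SE 0.06, edgeR adjusted p = 5.99e-05). Of 6 genes listed as LXR targets, 2 fell and 0 rose at 45 min, 4 fell and 1 rose at 90 min, and 1 fell and 1 rose at 180 min. Over all genes tested, 6.11% were lower and 4.69% higher at 45 min, and 9.97% lower and 11.1% higher at 90 min. Those that fell were Abca1, the sterol efflux pump, and Mylip at 45 min, these 2 with Abcg1 and Lpcat3 at 90 min, and Abca1 at 180 min, and the riser at both later times was Nr1h3, the gene of LXR alpha. Nr1h3 averaged 37.3 ± 2.4 CPM at 180 min, against 26.5 ± 4.2 CPM in macrophages alone (log2 difference 0.49, SE 0.09, adjusted p = 4.61e-06), while Abca1 fell by 0.30 at 45 min (SE 0.04, edgeR adjusted p = 2.99e-08), by 0.15 at 90 min (SE 0.04, adjusted p = 0.00264) and by 0.22 at 180 min (SE 0.04, adjusted p = 6.83e-06). Srebf1, which is also an LXR target, was lower at that time, as given above.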

How the data were processed

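Total RNA of 16 libraries was measured by RNA-seq, 4 from macrophages alone and 4 from each of 45, 90 and 180 min with apoptotic cells. Column-purified RNA had its ribosomal fraction removed and went into a strand-keeping library kit, per the labels' protocols. The authors' deposited table holds raw, unnormalized counts for each gene. STAR 2.7.9a, SAMtools, HTSeq and the build mm39 are named, per the submitters' processing notes. How strand, multi-mapping reads and human reads were treated was not given in the sources used here. Column names give a library's group and no number, so numbers 1 to 4 are names in file order.

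The table's 55416 gene IDs held 25663 with a count, and symbols for 52083 and exon lengths came from GENCODE M21. Libraries of a group differed by more than sampling noise (chi-square per degree of freedom 3.98 to 10.2), so none was treated as a repeat deposit of another, which does not show that they are separate cultures. Genes passing edgeR's filter (minimum count 10, minimum total 15) numbered 14168. Libraries were scaled by trimmed mean of M values, and edgeR 4.0.16 (R 4.3.3) fitted all 16 in 1 quasi-likelihood model without covariates, with a biological coefficient of variation of 7.81%. P-values were adjusted by Benjamini-Hochberg over all genes tested, and a gene was called under 0.05. Log2 fold changes are not shrunk, and each SE is the coefficient over the square root of its F statistic. CPM are computed from the scaled library size, except for cell type markers, which use the unscaled total. Promoter windows came from RefSeq for GRCm38.p6, and no gene coordinates are given because the counts use mm39. Alternatives were size factors by relative log expression, 2 other filters on low counts, DESeq2 1.42.0, a fit of only the groups compared, counts thinned to the smallest total, protein-coding genes only, removal of a trend on length and GC content, and leaving out each library.

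The 31 genes, the gene lists and the motifs were chosen with earlier results of these data known. All 31 could be named, and of each other list up to 4 genes with the smallest p in a comparison. No test was run on a list as a whole. The counting error behind CPM covers reads only, and PCR copies are not independent molecules.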

Additional observations from a re-analysis of the deposited data

Results flagged for a closer look

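In 7 of the 124 groups of 4 libraries examined (31 genes in 4 groups), 1 library stood apart from the other 3 by a share of the group's range above Dixon's 95% critical value. Chance flags about 1 group in 20, so a number near this is what chance gives. At 180 min, Mvk was at 10.1 CPM in library 1, with the other 3 between 9.46 and 9.52 CPM. At 90 min, Tm7sf2 was at 4.03 CPM in library 3, and the nearest of the others was at 2.79 CPM. Also at 90 min, Srebf1 was at 77.6 CPM in library 2, with the others between 64.9 and 66.5 CPM, and Fads2 was at 0.349 CPM in the same library, with no count in the others. At 45 min, Stard4 was at 9.22 CPM in library 4, and the others were between 7.5 and 7.76 CPM. In macrophages alone, Mvd was at 5.13 CPM in library 2, with the others between 3.49 and 3.70 CPM, and Fads1 was at 62.5 CPM in library 3, with the others between 55.4 and 56.0 CPM. The 7 values come from 6 different libraries.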

How the results depend on the processing

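Of the 37 calls of synthesis genes over the 6 comparisons, 23 held under all 8 other settings and all 16 libraries left out in turn, and 14 were lost under at least 1. Of the 143 values not called, 16 were called under at least 1. The 1 call that reversed was Srebf2 at 90 min against 45 min, at 0.015 with the length and GC trend removed. The cause of these changes was not tested.

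At 45 min against macrophages alone, 2 genes rose (1 in the main fit) with relative log expression factors, with a filter of 1 CPM in 4 libraries and with DESeq2. There, 4 changed (2 higher, 2 lower) with only these 2 groups in the fit, 2 fell with thinned counts, and 5 changed (4 lower) with the length and GC trend removed. At 90 min against 45 min, 0 rose with thinned counts, and 6 changed (5 lower, median -0.11) with the length and GC trend removed. At 180 min against 90 min, 1 changed and 0 fell with relative log expression factors, with no filter, with only these 2 groups and with thinned counts. The median there was 0.027 thinned and 0.022 with the trend removed. At 180 min against 45 min, 1 rose with no filter and with only these 2 groups, and the median was -0.16 thinned, -0.073 with protein-coding genes only and -0.052 with the trend removed.

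Leaving out 1 library at a time gave 2 to 3 changed genes (1 to 2 higher, median 0.0398 to 0.087) at 45 min, 5 to 6 (1 to 2 higher, median -0.15 to -0.086) at 90 min and 7 to 9 (3 to 4 higher, 4 to 6 lower, median -0.076 to -0.029) at 180 min, each against macrophages alone. It gave 7 to 12 (0 to 1 higher, 6 to 11 lower) at 90 against 45 min, 1 to 2 (1 to 2 higher, 0 to 1 lower, median 0.018 to 0.058) at 180 against 90 min and 6 to 8 (1 to 2 higher, 5 to 7 lower, median -0.12 to -0.091) at 180 against 45 min. Depth limits what can be said of Idi1, Fdps, Fads2 and other genes below 5 CPM. No paired analysis was possible because the table's columns carry no replicate number.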
